A study of Schizosaccharomyces pombe with 10 samples.

Results

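The translation elongation factor genes of fission yeast (Schizosaccharomyces pombe) were examined in a chromatin immunoprecipitation sequencing (ChIP-Seq) series on the class I myosin Myo1, an actin motor of endocytosis. They were chosen by gene identifier: tef101 (SPCC794.09c), tef102 (SPAC23A1.10), tef103 (SPBC839.15c), eft201 (SPAC513.01c), eft202 (SPCP31B10.07) and tef3 (SPCC417.08). These were 6 of the 6116 genes that the deposited table names, and 127 of its 126317 windows carried their identifiers. All 6 passed the filter on low values, as did 5426 genes in all, but tef102 did so with 5 windows, which was the minimum.

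Myo1-GFP libraries came from cells whose Myo1 carried green fluorescent protein, and NoIP libraries came from a strain given as wild-type. Cells had spent 4 h at 30°C in YES, a rich medium (high phosphate), or in YES LowPi (low phosphate), and were fixed with 3% formaldehyde for 30 min. There were 3 Myo1-GFP and 2 NoIP libraries in each condition, 10 in all. The labels describe the same pulldown on GFP-Trap beads for every library, so whether NoIP means a pulldown from untagged cells or chromatin that was not pulled down cannot be told apart. Nothing states that replicates were separate cultures, so p-values measure the spread between libraries, which may be technical.

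Elongation factors carry the ribosome along the messenger RNA. eEF1A, encoded by tef101, tef102 and tef103, brings aminoacyl-tRNA to the ribosome as a complex with GTP. eEF2, encoded by eft201 and eft202, is the GTPase that moves the ribosome on by 1 codon. eEF3, encoded by tef3, is an ATPase of fungi that in budding yeast helps to release the spent tRNA. In yeast these are among the most strongly transcribed genes, and strongly transcribed genes are known to collect signal in many ChIP-Seq experiments, whatever protein is targeted.

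Each of the 6 genes has 1 coding exon. The coordinates are those of the RefSeq assembly ASM294v3, in which the 3 chromosomes end at the same positions as in the table. There tef101 was annotated at chrIII:267955-269516 on the minus strand. Its copies tef102 and tef103 were annotated at chrI:4095132-4096584 on the plus strand and at chrII:626004-627522 on the minus strand. The eEF2 genes lay at chrI:2907643-2910261 on the minus strand (eft201) and at chrIII:537290-539922 on the plus strand (eft202). The single eEF3 gene, tef3, lay at chrIII:1685645-1688951 on the plus strand.

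The copies are nearly identical, which bears on every value over their bodies. The 3 eEF1A genes had coding sequences of 1383 bases, which differed at 16 positions between tef101 and tef102, at 19 between tef101 and tef103 and at 15 between tef102 and tef103. Both eEF2 genes had 2529 coding bases and differed at 11 of them, with 587 bases as the longest identical run. The stretches of 90 bases with the most differences are printed below, with every base that differs among the copies in capitals. In the eEF1A genes it was coding positions 1291 to 1380, with 10 of the 25 positions that differ among the 3 copies.
tef101 (chrIII:268100-268189, minus strand): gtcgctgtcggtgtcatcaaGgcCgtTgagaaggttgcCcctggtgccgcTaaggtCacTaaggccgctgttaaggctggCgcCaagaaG
tef102 (chrI:4096492-4096581, plus strand): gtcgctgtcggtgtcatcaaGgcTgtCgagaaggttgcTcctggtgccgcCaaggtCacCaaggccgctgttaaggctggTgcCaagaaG
tef103 (chrII:626109-626198, minus strand): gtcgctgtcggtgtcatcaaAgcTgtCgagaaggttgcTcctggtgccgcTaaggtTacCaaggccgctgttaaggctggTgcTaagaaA

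In the eEF2 genes it was the first 90 coding bases, which held 4 of the 11 differences.
eft201 (chrI:2910140-2910229, minus strand): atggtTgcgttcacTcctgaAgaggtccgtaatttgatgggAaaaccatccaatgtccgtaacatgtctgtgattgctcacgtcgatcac
eft202 (chrIII:537326-537415, plus strand): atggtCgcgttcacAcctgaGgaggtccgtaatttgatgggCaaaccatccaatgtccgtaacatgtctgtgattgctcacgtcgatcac

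Over the annotated bodies, 31.3% of the 50-base words of tef101 occurred once in the genome, against 17.3% for tef102, 19.3% for tef103, 9.93% for eft201 and 14.2% for eft202. All words of tef3 were unique. The flanking windows were unique at 95.0% of words for tef3 and at all words for the other 5 genes. A read of 50 bases over a shared stretch cannot be assigned to 1 copy, and how such reads were placed is not given in the sources used here. Levels over the bodies of the copies can therefore hold signal from the other copies of the family, while the flanks are unique sequence or nearly so.

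Sequences upstream of the genes are shown because their signal changed close to the annotated start. HomolD, a promoter box known from ribosomal protein genes of fission yeast, was searched as CAGTCACA on both strands of the 250 bases upstream of the start. HomolE was searched likewise as ACCCTACCCT. Both are capitalised in the 150 bases before the annotated start of each gene, read 5′ to 3′ on the strand of the gene (ASM294v3).
tef101 (chrIII:269517-269666, minus strand): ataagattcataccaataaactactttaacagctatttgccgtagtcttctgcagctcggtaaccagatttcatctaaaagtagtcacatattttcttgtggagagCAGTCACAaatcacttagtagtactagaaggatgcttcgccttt
tef102 (chrI:4094982-4095131, plus strand): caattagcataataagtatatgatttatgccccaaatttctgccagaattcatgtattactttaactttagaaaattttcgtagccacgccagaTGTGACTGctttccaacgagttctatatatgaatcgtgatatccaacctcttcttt
tef103 (chrII:627523-627672, minus strand): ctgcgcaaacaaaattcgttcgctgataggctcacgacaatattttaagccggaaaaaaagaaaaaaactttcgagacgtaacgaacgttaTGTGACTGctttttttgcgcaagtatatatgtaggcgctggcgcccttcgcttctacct
eft201 (chrI:2910262-2910411, minus strand): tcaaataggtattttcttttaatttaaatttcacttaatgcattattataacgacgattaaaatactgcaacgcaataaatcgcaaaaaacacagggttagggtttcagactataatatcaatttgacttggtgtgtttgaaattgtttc
eft202 (chrIII:537140-537289, plus strand): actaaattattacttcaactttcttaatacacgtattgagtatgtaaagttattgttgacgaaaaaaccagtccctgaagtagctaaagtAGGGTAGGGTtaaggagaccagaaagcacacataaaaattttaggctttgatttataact
tef3 (chrIII:1685495-1685644, plus strand): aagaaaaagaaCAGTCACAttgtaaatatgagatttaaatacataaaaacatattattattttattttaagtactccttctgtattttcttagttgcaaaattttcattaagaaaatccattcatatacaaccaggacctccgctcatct

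The letters of HomolD were present upstream of all 3 eEF1A genes, with their first base 44 bases before the start in tef101 and, as the reverse complement, 56 and 59 bases before it in tef102 and tef103. In tef3 they lay 139 bases before the start. Of all 5112 protein-coding genes, 2.62% had these letters in a window of the same length, and of 135 genes for 40S and 60S ribosomal proteins 63.0% did. eft202 had the reverse complement of HomolE, 60 bases before the start, which 1.21% of protein-coding genes and 29.6% of ribosomal protein genes had. eft201 had neither. The search found letters, not sites in use.

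Signal over the genes stood high in every library. The measure was the gene body level, the log2 of the mean signal over the windows with the gene's identifier relative to the median window of the library. Over 6 genes and 10 libraries it ranged from 0.55 to 2.27, which is 1.46 to 4.83 times the median window. Within a library the genes lay between percentiles 92.4 and 99.7 of the genes tested. The median gene had a mean level of 0.02, and 107 ribosomal protein genes had a median of 0.61.

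Among the eEF1A genes, the level of tef101 was 1.37, 0.95 and 2.10 in the Myo1-GFP libraries in high phosphate, 1.92 and 1.17 in NoIP in high phosphate, 1.06, 1.31 and 1.58 in Myo1-GFP in low phosphate, and 1.61 and 1.14 in NoIP in low phosphate (replicates in order). For tef102 it was 1.47, 1.27 and 1.74, then 2.10 and 1.44, then 1.38, 1.56 and 1.15, then 1.97 and 1.46 in the same order of groups. tef103 gave 1.45, 1.26 and 2.2, then 2.27 and 1.51, then 1.55, 1.83 and 1.91, then 2.14 and 1.61. In all 3 genes the groups overlapped, and NoIP replicate 1 was above NoIP replicate 2 in both conditions. Values for tef102 come from its 3′ end alone, since windows over the rest carry SPNCRNA.957, an antisense non-coding RNA.

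Of the eEF2 genes, eft201 had levels of 0.95, 0.55 and 1.66 in Myo1-GFP in high phosphate, 1.35 and 0.70 in NoIP in high phosphate, 0.59, 0.64 and 0.79 in Myo1-GFP in low phosphate, and 1.03 and 0.58 in NoIP in low phosphate. eft202 followed with 1.11, 0.71 and 1.68, then 1.45 and 0.86, then 0.74, 0.80 and 0.82, then 1.27 and 0.62. Both were highest in replicate 3 of Myo1-GFP in high phosphate, and the groups overlapped. tef3, the eEF3 gene, had 1.13, 0.98 and 1.29, then 1.46 and 1.12, then 1.15, 1.28 and 1.06, then 1.57 and 1.14. It varied least, with an SD over the 10 libraries of 0.18 against 0.30 to 0.37 for the other 5 genes.

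**Figure D1:**
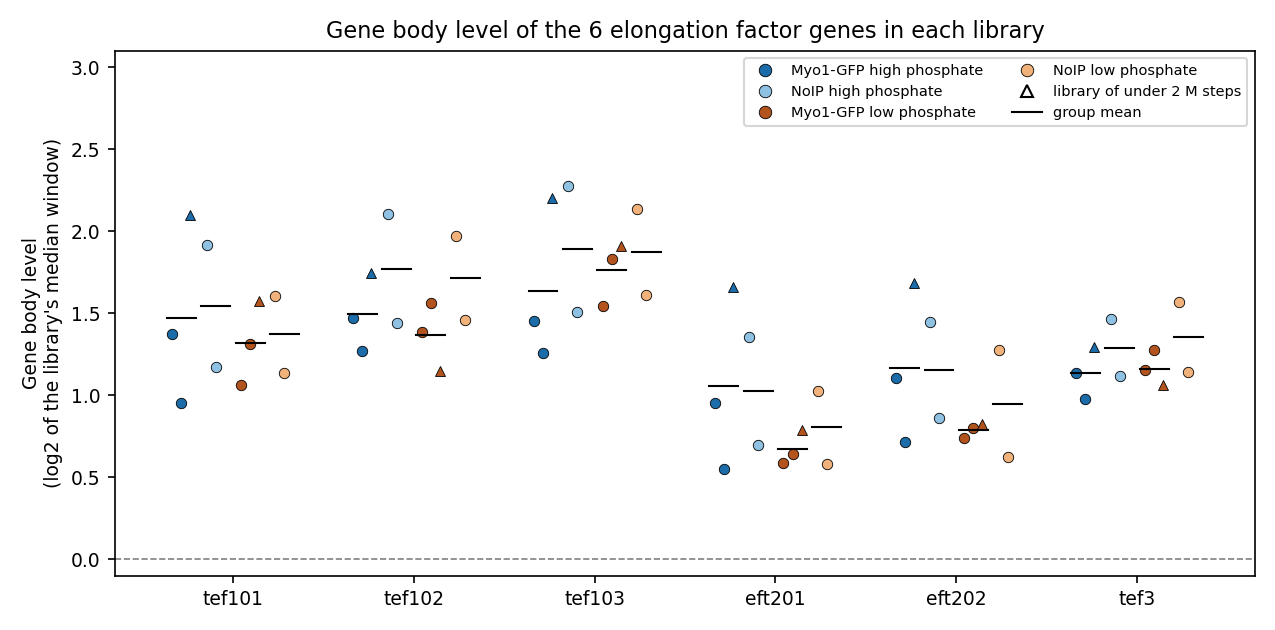
Gene body level (log2 of the mean signal relative to the median window of the library, y axis) of the 6 genes in each of 10 libraries, coloured by group, with black lines at group means and triangles for the 2 libraries of under 2 M (mega) steps. All points lie between 0.55 and 2.27, above the dashed line of the median window, and the 4 groups of each gene overlap.

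Ordered by the mean over libraries, tef103 came first with 1.77 ± 0.35 (SD, n = 10), before tef102 with 1.56 ± 0.30, tef101 with 1.42 ± 0.37, tef3 with 1.22 ± 0.18, eft202 with 1.01 ± 0.35 and eft201 with 0.88 ± 0.37. These are signal per window and so do not grow with gene length. Neighbours from tef103 down to eft202 differed by 0.14 to 0.22 with an SD of 0.24 to 0.29 over libraries. From the top, the higher gene of each pair was so in 8, 8, 7 and 9 of 10 libraries. The order was not tested. Between copies of a family it may also depend on how shared reads were placed, which is not given in the sources used here. eft202 was above eft201 by 0.12 ± 0.07 and in 10 of 10 libraries, but by the annotated coordinates this was 0.06 ± 0.06 and 7 of 10. With the latter windows, tef103 was above tef102 by 0.24 ± 0.15 and in 10 of 10 libraries, and tef102 was above tef101 in 5 of 10.

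The level over the genes was above that of the sequence on both sides combined. Body minus flanks was the body level minus the level of the windows within 1 kb on either side, which share library and scaling. Averaged over the 4 groups it was positive for all 6 genes: 0.84 ± 0.13 (SE) for tef101, 0.44 ± 0.08 for tef102, 1.08 ± 0.11 for tef103, 0.76 ± 0.11 for eft201, 0.64 ± 0.11 for eft202 and 0.53 ± 0.06 for tef3. Each passed limma's test across 5426 genes, with adjusted p from 8.53e-05 for tef103 to 0.00147 for eft202. The background was 37.6% of genes called, with 830 higher over the body (15.3%) and 1208 lower. In 5 of the 6 genes, tef102 being the exception, the body was above the flanks in every library, as it was in 7.76% of all genes.

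tef102 needs its own account. Of its 18 flank windows, 8 lay inside the annotated gene, and its body minus flanks was −0.04 and −0.01 in replicate 3 of Myo1-GFP in high and low phosphate. With flanks of 500 bp the value dropped to 0.13 and the call was lost (adjusted p = 0.276, limma). With windows taken by the annotated coordinates it was 1.02 (adjusted p = 0.00104), near the 1.08 of tef101 and the 0.99 of tef103 by the same windows. Over those windows the 10 libraries gave tef102 between 0.47 and 2.06. For tef103, flanks of 500 bp gave 0.57, and for tef101 0.52, both still called.

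All words in the body of tef3 were unique, so its value does not bear on reads shared by copies of the other 5 genes. Its body minus flanks was 0.66 in windows of unique sequence (adjusted p = 6.85e-05, limma), against 0.53 in all windows. This restriction left out no window inside the annotated gene, while the flanks were unique at 95.0% of words. For the other 5 genes too few windows of unique sequence remained for such a value. The nearest unique windows just past the 3′ ends of the copies were high as well. They had mean levels over 10 libraries of 1.36 ± 0.40 (SD) for tef101, 1.19 ± 0.68 for tef102, 1.89 ± 0.36 for tef103, 0.81 ± 0.33 for eft201 and 1.14 ± 0.45 for eft202. Unique windows nearest to the 5′ ends stood at 0.23 ± 0.50, 0.37 ± 0.56, 1.05 ± 0.64, 0.08 ± 0.34 and 0.25 ± 0.48 in the same order.

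**Figure D2:**
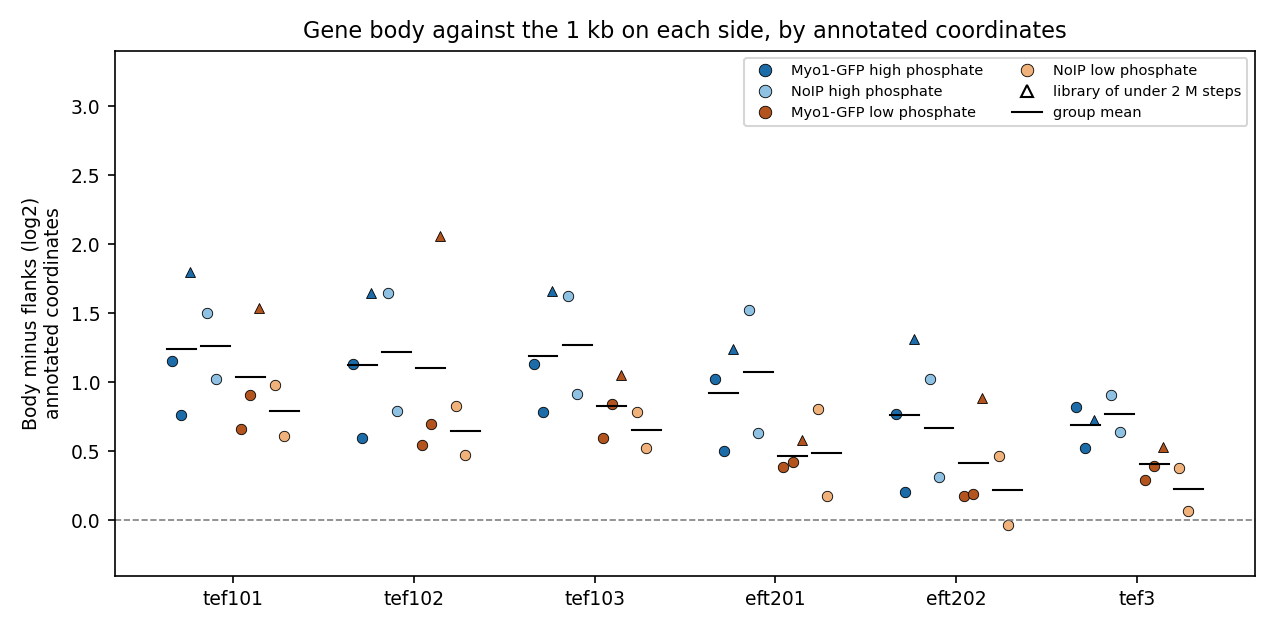
Body level minus flank level (log2, y axis) with windows taken by the annotated coordinates, for 6 genes and 10 libraries coloured by group, with group means as black lines and triangles for the 2 libraries of under 2 M (mega) steps. Points lie above 0 except 1 of eft202, at −0.03 in NoIP replicate 2 in low phosphate, and reach 2.06 for tef102.

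Averaged over libraries, the signal of each gene was higher in its 3′ part than in its 5′ part, and it ran past the 3′ end. This shape was noticed in the data and is given as a description. Each annotated gene was split into 3 equal parts, and the 3′ part was above the 5′ part by a mean over libraries of 0.41 ± 0.64 (SD) in tef101, 0.47 ± 0.23 in tef102, 0.55 ± 0.31 in tef103, 0.28 ± 0.29 in eft201, 0.27 ± 0.23 in eft202 and 0.29 ± 0.27 in tef3. Over 4293 protein-coding genes the median of this difference was 0.20, so the eEF2 genes and tef3, at percentiles 63.8 to 67.4, were near the middle of all genes. tef103, at percentile 93.2, leaned most.

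The flanks differed more. The downstream flank was above the upstream flank in 10 of 10 libraries for 5 of the 6 genes, and in 9 for tef3, where the lowest difference was 0. The mean difference ran from 0.55 ± 0.18 (SD) in eft202 to 0.73 ± 0.36 in tef3, at percentiles 91.9 to 95.8 of protein-coding genes, whose median was 0.05. All 10 libraries were above 0 in 11.6% of these genes. Some downstream flanks hold other strongly expressed genes, namely rpl1602 beyond tef102 and rpl35A01 beyond eft202, both for ribosomal proteins, and the tRNA genes sup9 and imt07 beyond tef3. Their part in the downstream signal was not tested.

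**Figure D3:**
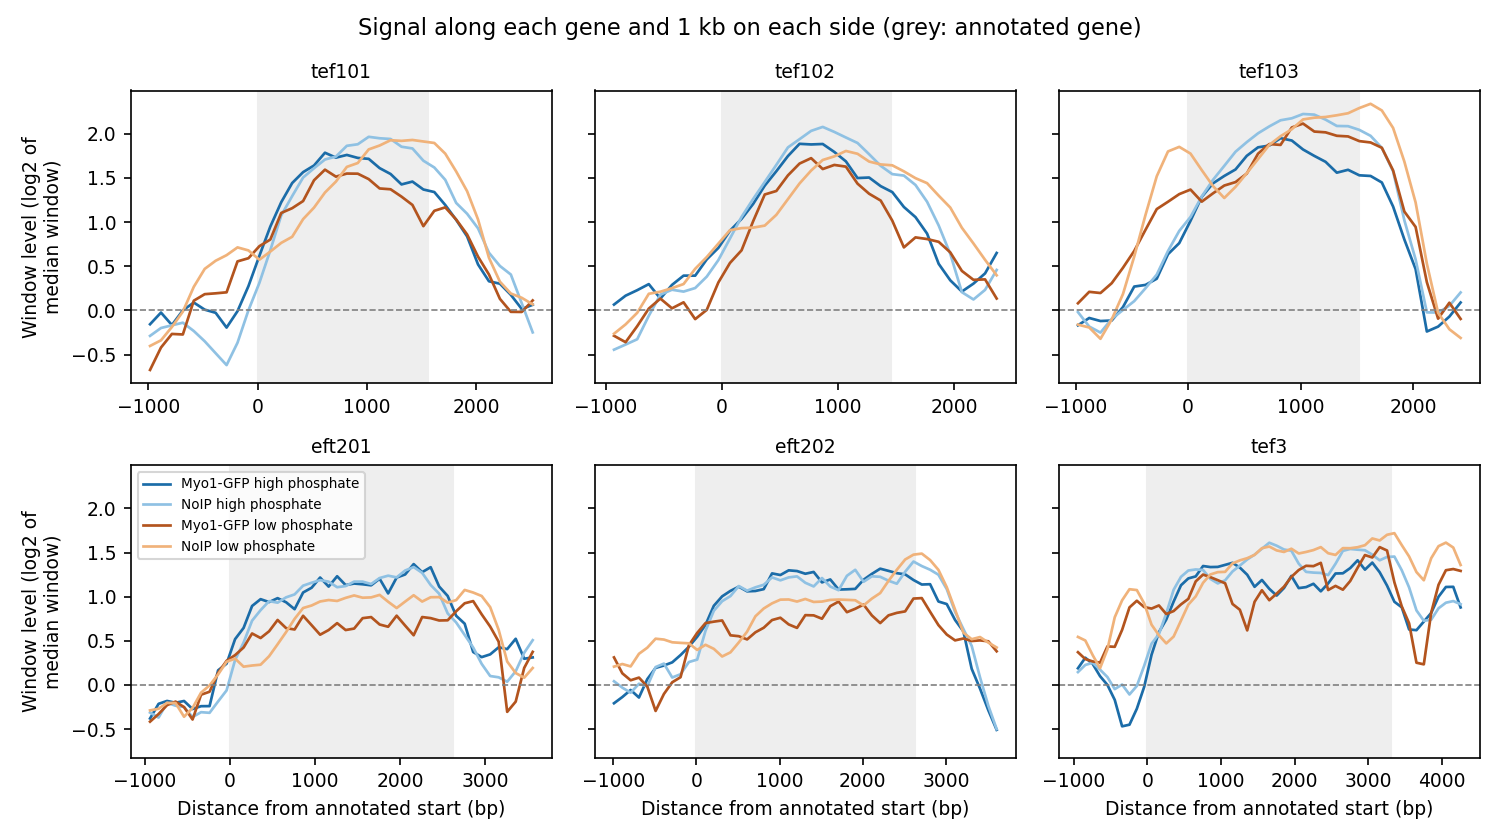
Window level (log2 relative to the median window, y axis) against distance in bp from the annotated start (x axis), 1 panel per gene and 1 line per group mean, with the annotated gene shaded. In high phosphate the lines rise across the start, and all lines are above the median window just past the end. In low phosphate the lines of tef103 and tef3 already stand high before the start, and in NoIP they fall across it. The NoIP lines of tef101 and eft202 in low phosphate also fall there, from 0.71 and 0.48 before the start to 0.57 and 0.40 just past it. The mean upstream levels of tef103 and tef3 are 0.75 and 0.61 in low phosphate, against 0.18 and 0.0032 in high phosphate.

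The first comparison of the design asks whether tagged Myo1 gave a signal beyond that of NoIP. Over the bodies it did not do so detectably for any of the 6 genes. In high phosphate the difference Myo1-GFP minus NoIP lay between −0.28 ± 0.27 (SE, tef102) and 0.03 ± 0.31 (eft201), and in low phosphate between −0.35 ± 0.27 (tef102) and −0.05 ± 0.35 (tef101). No adjusted p of limma was below 0.98. None of the 5426 genes was called in either condition (0%), with 118 and 17 at an unadjusted p under 0.05, so the test called nothing anywhere. The groups overlapped for every one of the 6 genes in both conditions. Of all genes, 10.5% had every Myo1-GFP library below both NoIP libraries in high phosphate and 9.2% had them above, and 10.9% and 6.62% did in low phosphate.

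Body minus flanks gave the same picture. Myo1-GFP minus NoIP was between −0.20 ± 0.21 (SE, tef102) and 0.05 ± 0.38 (tef101) in high phosphate and between −0.27 ± 0.21 (tef102) and 0.39 ± 0.38 (tef101) in low phosphate, with adjusted p of at least 0.97 (limma). Again 0 of 5426 genes were called (69 and 10 at an unadjusted p under 0.05). The only gene of the 6 whose groups did not overlap was tef102 in low phosphate, where the Myo1-GFP libraries were below both NoIP libraries, a pattern that 7.59% of all genes had (11.7% had the opposite one, and 8.5% and 9.34% were below and above in high phosphate). By the annotated coordinates these tef102 groups overlapped, with 0.54, 0.70 and 2.06 in Myo1-GFP and 0.83 and 0.47 in NoIP. The SE of these differences was 0.18 to 0.38.

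The second comparison asks whether the signal moved with phosphate. In Myo1-GFP libraries the change in body level from high to low phosphate was −0.38 ± 0.28 (SE) for eft201 and −0.38 ± 0.27 for eft202. Without replicate 3 in high phosphate these were −0.08 and −0.12, and without replicate 2 in high phosphate −0.64 and −0.61. For the other 4 genes it lay between −0.16 ± 0.32 (tef101) and 0.13 ± 0.31 (tef103). None of the 6 was called, with adjusted p from 0.566 to 0.953 (limma), while 15 of all genes were (0.276%), 14 of them higher in low phosphate. In NoIP libraries the changes were between −0.22 ± 0.34 (eft201) and 0.06 ± 0.21 (tef3), with 0 of 6 called and 16 of all genes (0.295%). The conditions overlapped for all 6 genes, while of all genes 9.03% were in low phosphate wholly lower and 9.93% wholly higher among Myo1-GFP libraries, against 21.2% and 27% among NoIP libraries. The interaction of phosphate and kind of library lay between −0.17 ± 0.42 (eft202) and 0.14 ± 0.48 (tef103), and 0 genes were called (27 at an unadjusted p under 0.05).

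**Figure D4:**
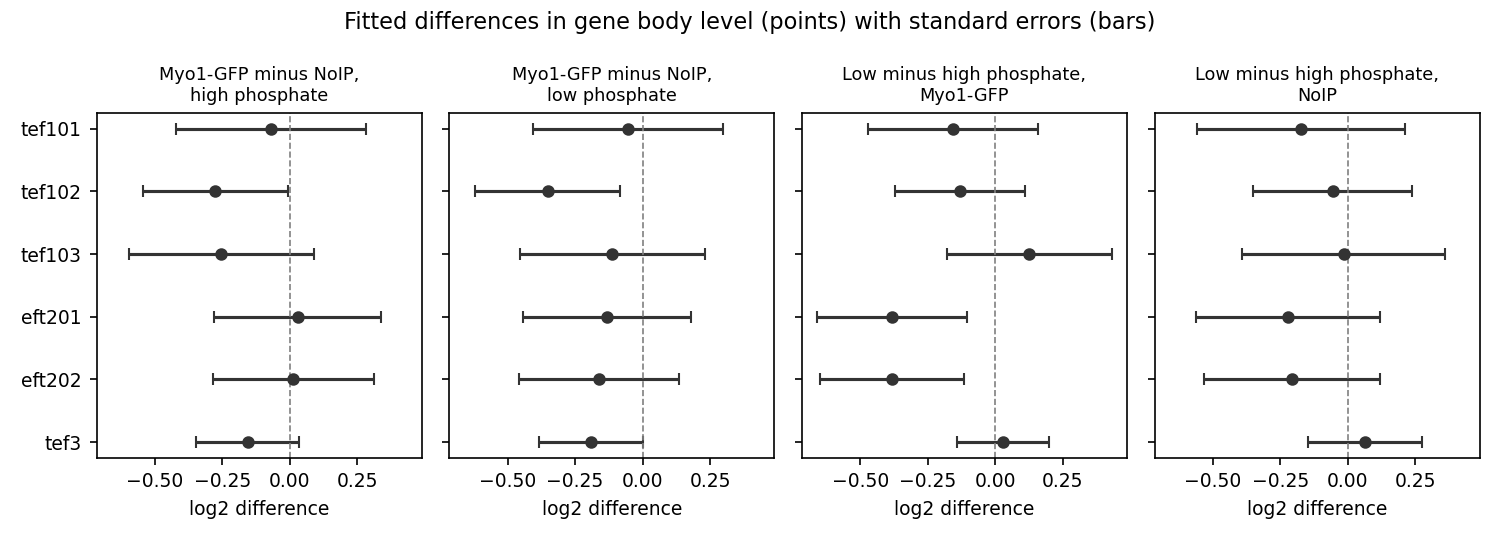
Fitted difference in gene body level (x axis, log2) with its SE as a bar, for 6 genes in 4 comparisons. Differences run from −0.38 (eft201, low minus high phosphate in Myo1-GFP) to 0.13 (tef103, same comparison), and none was called.

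Relative to the flanks, the change with phosphate in NoIP was −0.41 ± 0.41 (SE) for tef101, −0.40 ± 0.35 for tef103, −0.42 ± 0.35 for eft201, −0.48 ± 0.35 for eft202 and −0.41 ± 0.19 for tef3. For tef102 it was 0.08 ± 0.23, or −0.57 by the annotated coordinates. Single libraries decided much of these values: without NoIP replicate 1 in high phosphate they were −0.21 (tef101), −0.08 (tef103), −0.01 (eft201), −0.11 (eft202) and −0.30 (tef3), and without NoIP replicate 2 in high phosphate −0.61, −0.71, −0.83, −0.85 and −0.53. None passed limma's test (smallest adjusted p = 0.818, for tef3), and 9 of all genes did (0.166%). tef101 and tef3 had both low-phosphate libraries below both high-phosphate ones, which 31.6% of all genes also had, and tef102 had them above, as did 20.3%. In Myo1-GFP the changes ran from −0.42 ± 0.29 (eft202) to 0.01 ± 0.19 (tef102), again with 0 of 6 called, against 1 of all genes (0.0184%). There the conditions overlapped for all 6 genes, and 9.8% of all genes were wholly lower and 5.99% wholly higher in low phosphate.

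For 2 genes, the upstream flank taken by the annotated coordinates had a higher signal in low phosphate. The windows with their identifiers reach beyond the annotated start, so the body measured above holds some of this upstream sequence. The upstream flank of tef3 was at 0.59, 0.55 and 0.52 in the Myo1-GFP libraries and at 0.67 and 0.74 in the NoIP libraries in low phosphate. In high phosphate the same flank was at 0.03, −0.0024 and −0.17 in Myo1-GFP and at 0.17 and −0.01 in NoIP, so the 5 low-phosphate libraries did not overlap with the other 5. The upstream flank of tef103 stood at 0.62, 0.72 and 0.86 and at 0.85 and 0.71 in low phosphate, against −0.01, 0.09 and 0.54 and 0.08 and 0.21 in high phosphate, also without overlap. Both differences, 0.61 for tef3 and 0.57 for tef103, lay at percentiles 95.2 and 94 of protein-coding genes.

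The upstream flanks of the other 4 genes overlapped between conditions, with mean differences from −0.14 (tef102) to 0.31 (tef101). All 5 low-phosphate libraries lay above all 5 high-phosphate ones in the upstream flank of 7.64% of 4293 genes, and in the opposite order in 1.58%. Over the 5′, central and 3′ parts and the downstream flank, none of the 6 genes had conditions that did not overlap. Of all protein-coding genes, the shares wholly above and wholly below in low phosphate were 1.3% and 4.01% over the 5′ part, 1.96% and 4.4% over the central part, 2.73% and 1.77% over the 3′ part, and 4.98% and 1.89% over the downstream flank. The pattern was noticed in the profiles and has no test. It was present in NoIP as well as in Myo1-GFP libraries. The upstream flank of tef103 also holds the start of thf1, a gene of folate metabolism on the opposite strand.

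The libraries of a group also differed in depth, and the levels of most copies moved with it. The deposited signal rises in steps, which differ between libraries, and totals ran from 1.42 M to 43.8 M (mega) steps per library. Replicate 3 of Myo1-GFP had under 2 M in both conditions (1.42 M and 1.80 M), so a median window held 8 and 11 steps there and 64 to 311 elsewhere. Whether 1 step is 1 read was not established for the deeper libraries. In each of the 4 groups the shallowest library was then set against the deepest.

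For tef101, the shallowest library exceeded the deepest by 1.14 in Myo1-GFP and 0.75 in NoIP in high phosphate, and by 0.51 and 0.47 in low phosphate. eft201 gave 1.11 and 0.65, then 0.20 and 0.45. tef3 gave 0.31 and 0.34, then −0.09 and 0.42. In high phosphate these differences of tef101 and eft201 within a group exceeded every change in body level between groups given above.

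With all libraries of each group in order of depth, a shallower library was always the higher one in all 4 groups for tef101, tef103, eft201 and eft202. This held for 3.70% of all genes. The 5 windows of tef102 and those of tef3 did not follow it. By the annotated coordinates tef102 did, with 2.31, 1.49 and 1.1 from the shallowest to the deepest Myo1-GFP library in high phosphate and 1.81, 1.42 and 1.15 in low phosphate, so that 5 of the 6 genes had this order, against 3.76% of all genes. In both NoIP groups it held for 6 of 6 genes and for 30.1% of all genes. The same order was common among other genes with repeated sequence. Of 134 other genes with under 50% unique words, 93 had it in all 4 groups (69.4%), against 83 of 5214 genes with at least 90% unique words (1.59%). Why depth and repeated sequence went together was not tested.

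**Figure D5:**
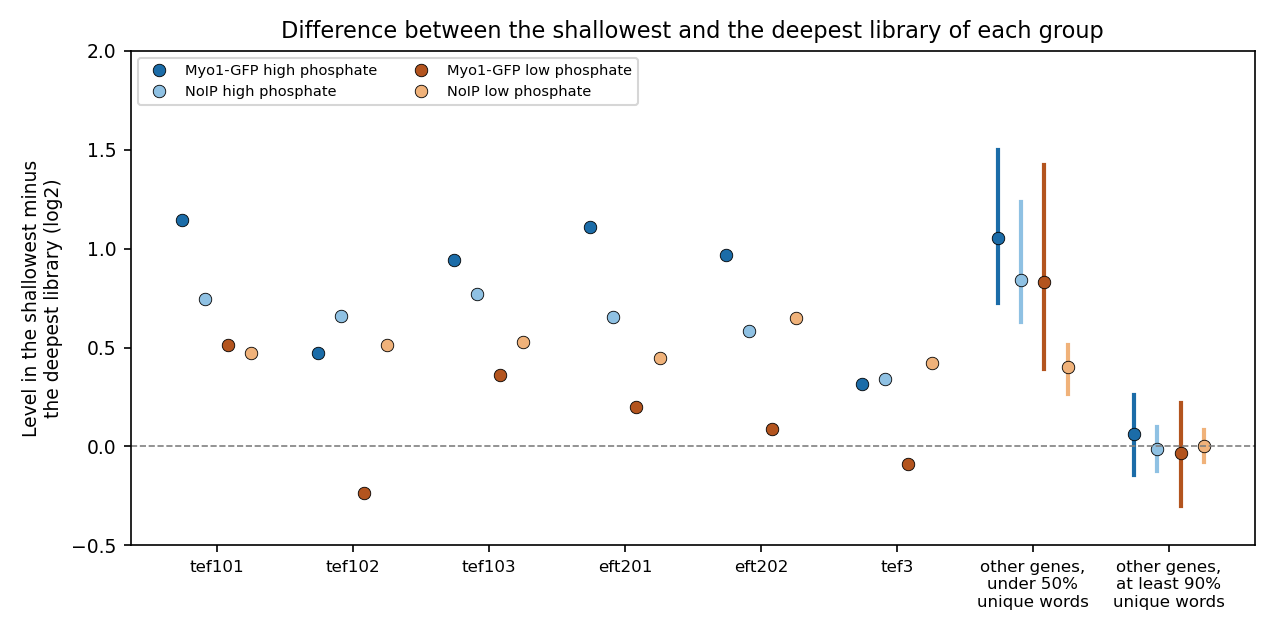
Gene body level in the shallowest library minus that in the deepest (log2, y axis) for each of 4 groups, for 6 genes and, as medians with bars from the lower to the upper quartile, for 134 other genes with under 50% and 5214 with at least 90% unique words. The copies reach 1.14 (tef101, Myo1-GFP in high phosphate), medians of the genes with repeated sequence lie at 0.40 to 1.06, and those of unique genes at −0.03 to 0.06. tef102 is shown by its 5 windows.

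The calls over the body did not rest on the shallow libraries. In the 8 deeper libraries, body minus flanks was 0.68 for tef101, 0.53 for tef102, 1.0 for tef103, 0.69 for eft201, 0.55 for eft202 and 0.52 for tef3, all called (largest adjusted p = 4.97e-05, limma). Of all 5426 genes, 3640 were called in these 8 libraries, in either direction, against 2038 in all 10. Leaving out any 1 library kept all 6 calls, with 1312 to 2740 of all genes called.

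Base composition also moved with the level. The 6 genes had a GC content of 44.4% to 48.8% over the windows with their identifiers. These were percentiles 99.0 to 99.9 of all genes, whose median was 36.1%. The 56 genes with at least the GC content of the lowest of the 6 had a median level of 0.68. Across 5411 genes the correlation of GC content with the mean level was r = 0.25, which describes these libraries, since genes share them. Its part in the level of the 6 genes was not tested.

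Of the other genes of elongation, tif51 (eIF5A, which helps the ribosome past difficult peptide bonds) had a mean level of 1.19, the gamma subunit of the exchange factor eEF1B (SPAC29A4.02c) 0.63 and its beta subunit (tef5) 0.47. All 3 were called higher over the body than the flanks, by 0.46 ± 0.08 (SE), 0.42 ± 0.06 and 0.30 ± 0.05. The 33 initiation factor genes had a median level of 0.17, with 12 called higher over the body and 2 lower. The 5 release factor genes had a median of −0.08, with 1 called each way. Of 107 ribosomal protein genes, 74 were called higher and 2 lower. Among all 5426 genes, 830 were called higher (15.3%) and 1208 lower. No gene of these lists was called in any comparison of Myo1-GFP with NoIP or of phosphate, body or body minus flanks.

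The levels of the 6 genes moved together over the 10 libraries, with Pearson's r between pairs from 0.59 (eft201 and tef3) to 0.98 (eft201 and eft202). The genes outside the 6 whose levels were most like the mean of the 6 were rpl302 (r = 0.98), rpl2802 (0.95), cox1102 (0.95), cox1101 (0.94) and rpn501 (0.93). Of these, rpl302, cox1102, cox1101 and rpn501 had 46.8%, 2.29%, 1.59% and 10.5% unique words, while rpl2802 had only unique words. Outside the 6 genes, most like tef3 were SPAC1805.10 (0.94), cpp1 (0.93) and set3 (0.92), all of unique sequence. Within the 6, tef102 was as close to tef3 (0.94). These values describe 10 libraries that differ in depth, and no test was made of them.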

How the data were processed

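ChIP-Seq window signal was analysed for 10 libraries. The submitters' processing notes name Trim Galore 0.3.8, Bowtie2 2.2.4 and the ASM294v2 genome, while the methods of the study name TopHat and SeqMonk for its sequencing data. Per the labels, reads were single-end, of 50 or 100 bp by instrument, and which library had which is not given in the sources used here. The signal values deposited by the authors are whole multiples of a step that differs between libraries. Their scaling, the handling of reads that fit several places and the treatment of duplicates are not given in the sources used here.

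The table holds windows of 200 bp placed every 100 bp. Signal was averaged over the windows of a gene, 1 was added, and log2 was taken relative to the median window of each library. Genes with at least 5 windows and signal in at least 9 libraries were kept. Gene identifiers matched the ASM294v3 annotation for 98.2% of genes. Levels and body minus flanks were tested with limma 3.58.1 in R 4.3.3 (1 mean per group, all 10 libraries, eBayes with a trend, two-sided), with Benjamini-Hochberg adjusted p under 0.05 over all 5426 genes. This procedure was also run on simulated body levels, for low minus high phosphate in Myo1-GFP only. Each simulated gene had the same spread in all libraries, so the unequal depth of the real libraries was not simulated. A word of 50 bases was unique if it occurred once in the genome on either strand.

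The text names the 6 genes, translation factors and ribosomal protein genes listed by their annotated product, and genes of most similar pattern by Pearson's r. Members, lists and tests were chosen with earlier results of these data known. Alternatives were another scaling, filter, pseudocount, window summary, gene coordinates or flank length, unique windows, library weights, the 8 deeper libraries, the replicate number as a block, and leaving out each library.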

Additional observations from a re-analysis of the deposited data

How the results depend on the processing

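Direction and side of the threshold were kept in 745 of 805 alternative values of the 6 genes. For body minus flanks averaged over groups, the exception was tef102 with flanks of 500 bp (0.13, call lost). None of the 6 was called in any other comparison under any setting run. The values that changed sign were not called either, and the cause was not tested.

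Low minus high phosphate in Myo1-GFP relative to the flanks became −0.0034 (8 deeper libraries), −0.025 (annotated coordinates) and −0.027 (flanks of 500 bp) for tef102, which by annotated coordinates was −0.57 in NoIP. Myo1-GFP minus NoIP over the body in high phosphate became −0.27, −0.29 and −0.0010 for eft201 and −0.24, −0.26 and −0.017 for eft202 (8 deeper libraries, library weights, centring on the median gene). In low phosphate it became 0.019 for tef101 (median over windows) and 0.0091 for tef102 (annotated coordinates). Low minus high phosphate over the body in Myo1-GFP became 0.025 and 0.018 for tef101 and 0.10 and 0.091 for tef102 (8 deeper libraries, library weights), and −0.042 and −0.12 for tef3 (annotated coordinates, quantile normalization), with −0.051 for tef3 in NoIP (quantile normalization).

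Without each library in turn, Myo1-GFP minus NoIP over the body ranged in high phosphate from −0.44 to 0.30 (tef101), −0.61 to 0.054 (tef102), −0.64 to 0.13 (tef103), −0.30 to 0.36 (eft201), −0.28 to 0.30 (eft202) and −0.33 to 0.015 (tef3), and in low phosphate from −0.29 to 0.18 (tef101), −0.37 to 0.15 (tef103), −0.36 to 0.092 (eft201), −0.49 to 0.16 (eft202) and −0.40 to 0.022 (tef3). The ends came from leaving out a NoIP library. Low minus high phosphate over the body ranged in Myo1-GFP from −0.42 to 0.15 (tef101), −0.64 to −0.08 (eft201), −0.61 to −0.12 (eft202), −0.063 to 0.41 (tef103) and −0.049 to 0.11 (tef3), and in NoIP from −0.55 to 0.20 (tef101), −0.39 to 0.27 (tef102), −0.40 to 0.37 (tef103), −0.55 to 0.10 (eft201), −0.53 to 0.12 (eft202) and −0.15 to 0.27 (tef3). Relative to the flanks in Myo1-GFP it ranged from −0.43 to 0.21 (tef101), −0.17 to 0.18 (tef102) and −0.46 to 0.0047 (tef103), and in NoIP from −0.61 to −0.21 (tef101), −0.71 to −0.08 (tef103), −0.83 to −0.01 (eft201), −0.85 to −0.11 (eft202) and −0.57 to −0.26 (tef3).

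Counts over all genes moved more. Low minus high phosphate over the body called 743 genes in Myo1-GFP and 295 in NoIP with library weights, 270 and 440 in the 8 deeper libraries, 49 and 28 with quantile normalization, 32 and 32 in unique windows, 3 in Myo1-GFP with the median over windows and 9 in NoIP by annotated coordinates. Without each library in turn it called 1 to 97 and 0 to 93. Relative to the flanks it called 707 and 463 with library weights, 303 and 615 in the 8 deeper libraries, 26 and 23 with quantile normalization, 5 and 14 with no filter, 0 and 5 by annotated coordinates, 0 and 0 with the median over windows or flanks of 500 bp, and 1 to 16 and 0 to 28 without each library. Body minus flanks over all groups called 3663 genes with library weights, 3640 in the 8 deeper libraries and 1312 to 2740 without each library.

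Deviations of same-numbered libraries correlated at r from −0.28 to 0.49, above 0.1 in 8 of 13 pairs, and 8 of 10 libraries correlated best with 1 of their own number in another group. Since not every pair was above 0.1, the numbers were not taken as a pairing. With a replicate block, low minus high phosphate over the body called 56 genes in Myo1-GFP and 26 in NoIP, and 4 in Myo1-GFP relative to the flanks. Myo1-GFP minus NoIP over the body in high phosphate then was −0.15 for eft201 and −0.13 for eft202.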
